A study of Mus musculus with 2 samples.

Results

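The genes described here have symbols starting with Eif and a number, for translation initiation factors, or Eef and a number, for elongation factors. Some of them encode regulators and not factors, such as the kinases of eIF2 and eEF2, proteins that bind eIF4E and a methyltransferase of eEF1A. The term translation factor genes covers them all. The rule that picks them goes by name in the platform annotation and uses none of their values. Earlier results of these data were known when it was chosen. Of 8721 genes named by a single symbol in the deposited table, 50 were members, 42 Eif genes and 8 Eef genes, measured by 104 probe sets. A probe set is a group of short probes on an Affymetrix array that together report 1 transcript. Where a gene had several probe sets, the one with the highest mean log2 signal stands for it.

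RNA came from colon epithelial cells of mice of the inbred strain C57BL/6, aged 7 weeks. One group of cells was incubated with PBS, a buffered salt solution, and the other with MIF, taken here to be the cytokine macrophage migration inhibitory factor. Genotype was not stated beyond the strain, and neither were the dose and length of the incubation or whether animals were pooled. Each group was 1 array, so there was no replicate, no p-value and no error between samples. Precision is limited by this number of arrays.

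Protein synthesis starts when the small ribosomal subunit, carrying the initiator tRNA on eIF2, is recruited to the capped end of an mRNA by eIF4 and eIF3 and scans to the start codon. Phosphorylation of eIF2 by any of its kinases blocks its recharging by eIF2B and so lowers general initiation. Binding of eIF4E by the 4E-BP proteins, which mTORC1 relieves, is the other main brake. Elongation then runs on eEF1A, which brings tRNAs to the ribosome, and eEF2, which moves the ribosome along. The colon epithelium renews itself rapidly and makes large amounts of secreted and membrane protein.

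All probe sets together had a median signal of 337 with PBS and 346 with MIF, which is 0.04 apart on the log2 scale, and the columns were used as deposited. Signals under a floor of 232, the 40th percentile, were raised to it. Of the epithelial markers listed, 12 of 12 in the table lay above the floor on both arrays. Their summed signal was 94079 with PBS and 89401 with MIF, and 10 of 12 were lower with MIF, with a median log2 difference of -0.08. Of 6 T and NK cell markers in the table, Gzma and Gzmb lay above it, and the summed signal of the list was 1689.7 with PBS and 917 with MIF. Of 7 fibroblast markers, 3 were above the floor on at least 1 array, and their list summed to 751 and 1877. Of 6 myeloid markers, Cd14 and Lyz2 were above it on at least 1 array. The B and plasma cell marker Jchain (23.4 and 6.86), the endothelial marker Cdh5 (25.4 and 18.7) and the smooth muscle marker Acta2 (97.4 and 186) lay under it on both. The part of these other cells in the values that follow was not tested. In bulk RNA, fewer cells of a type and less RNA per cell cannot be told apart.

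Translation factor transcripts differed between the arrays by less than 1.5-fold in every assessed gene. Of the 50 genes, 47 lay above the floor on both arrays, and 3 (Eef1a2, Eef2k and Eif2ak4) lay under it on both and were not assessed. Differences are log2 signals with MIF minus those with PBS, and a gene was counted as set apart from a 1.2-fold difference on, which is 0.26 on that scale. None of the 47 assessed genes was at least 1.2-fold higher on the MIF array, against 6.82% of all 5837 assessed genes. At least 1.2-fold lower were 2 of the 47, Eif3f and Eef1d, against 6.29% of all assessed genes. In the brightest of 4 signal groups, which held 26 of the members, these shares were 3.77% higher and 4.80% lower for all genes. At 1.1-fold, 8 were higher and 10 lower, against 18.5% and 20.2% of all assessed genes, so the share of members within 1.1-fold (61.7%) was close to that of all assessed genes (61.3%). At 1.5-fold there was none in either direction, against 0.634% of all assessed genes higher and 0.463% lower. After quantile normalization the 1.2-fold counts were 1 higher (Eif4g2) and 1 lower (Eif2b4), and after removal of the trend with intensity they were 1 higher (Eif4g2) and 0 lower.

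The median log2 difference of the 47 genes was -0.06, from -0.29 to 0.26, beside -0.01 for all assessed genes. Below 0 were 28 and above 0 were 19, against 53.3% of all assessed genes below 0 and 46.7% above. The median and these counts take the factors and their regulators together. When each array was centred on its own median, 33 of the members were below 0 and 14 above, against 61.8% of all assessed genes below 0. The SD of the difference across genes was 0.14 for the members and 0.19 for all assessed genes. Many members are bright. When the assessed genes were divided by signal into 4 groups of nearly equal size, the brightest group held 26 of the 47, and in it 17 were lower on the MIF array, beside 63.1% of all genes there. The median difference in that group was -0.07 for the members and -0.04 for all genes.

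**Figure D1:**
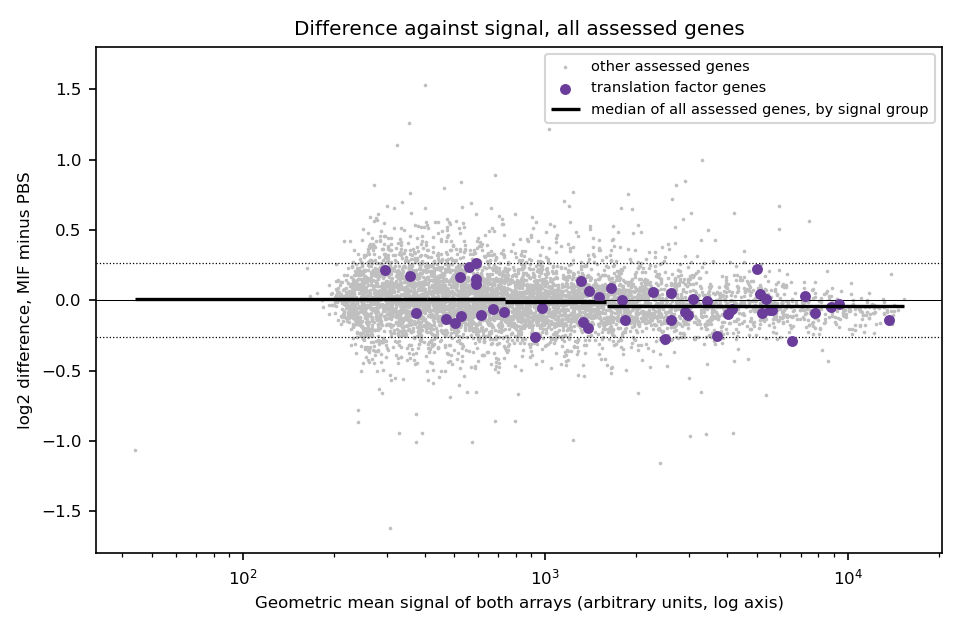
Log2 difference (MIF minus PBS) against the geometric mean signal of both arrays on a log axis, for the 47 assessed translation factor genes (purple) and all other assessed genes (grey). Black bars give the median of all assessed genes in each of the 4 signal groups, and dotted lines mark 1.2-fold. The purple points lie within or close to the dotted lines, and 26 of them lie in the brightest group.

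Probe sets that report the same gene gave the only measure of error within these arrays. Over 1800 genes that had more than 1 probe set over the floor on each array, the SD of the log2 difference between probe sets of a gene was 0.15. Beyond this SD lay 7 members above 0 and 7 below it, against 17.3% and 18.9% of all assessed genes, and 33 members lay within it. Among 26 members with more than 1 such probe set, all probe sets had the same sign in 13, against 57.8% of the 1800 genes. In 7 of the members the probe sets differed in sign by more than that SD. This last count was not made for the 1800 genes, so it has no share to stand beside. Agreement between probe sets concerns the hybridisation of the same RNA and not the spread between cell preparations.

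**Figure D2:**
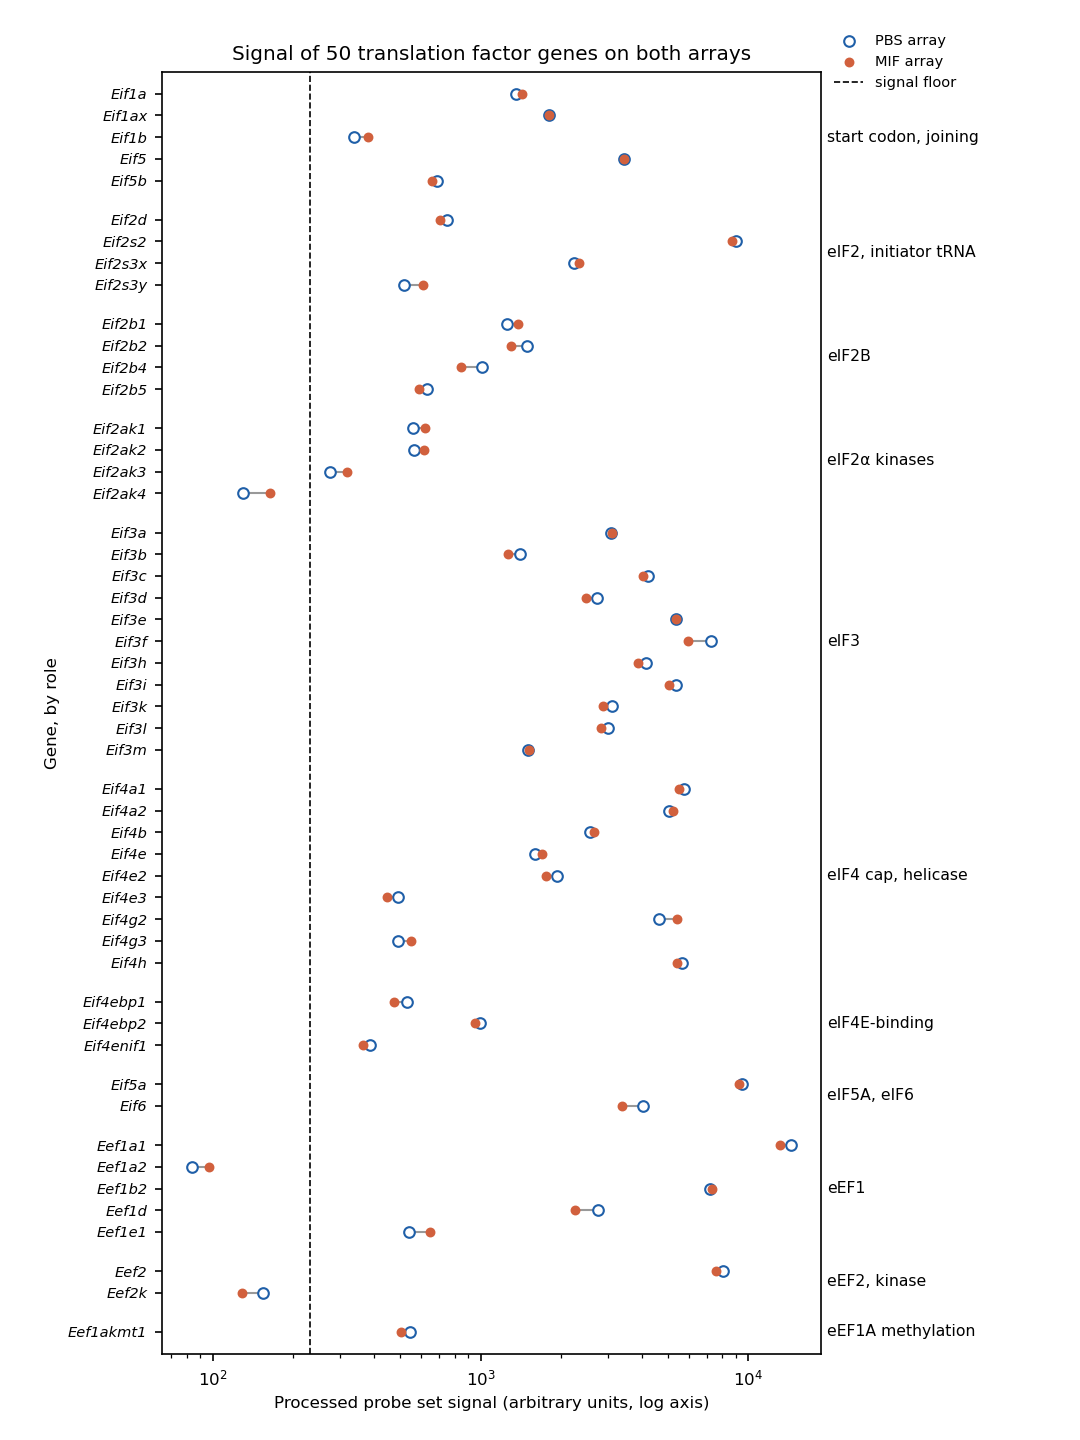
Processed signal on a log axis for the brightest probe set of each of the 50 genes, grouped by role, on the PBS array (open circles) and the MIF array (filled circles). The dashed line is the signal floor of 232. The paired circles touch or lie close together for nearly every gene, and 3 genes lie to the left of the floor on both arrays.

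The factors that recognise the start codon and join the subunits differed little. Eif1a, which with eIF1 opens the small subunit for scanning, had a signal of 1362 with PBS and 1422 with MIF (log2 difference 0.06). Its second probe set differed by -0.16, so the direction for this gene was not settled. The X-linked copy, Eif1ax, was at 1798 and 1799. Eif1b, a close relative of the start codon factor eIF1, went from 337 to 381, a difference of 0.18 on its only probe set and the largest of this group. The GTPase activator of eIF2, Eif5, was at 3425 and 3418, and its other 3 probe sets lay between 0.04 and 0.14. Eif5b, the GTPase that joins the large subunit, went from 685 to 657 (-0.06). The median of the 5 genes was 0.0009, and it was below 0, at -0.04, when the arrays were centred on their medians.

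Of the genes of eIF2 itself, which carries the initiator tRNA, both of those above 0 encode its gamma subunit. Eif2s2, the beta subunit, was at 8976.5 with PBS and 8662 with MIF (-0.05), and its 5 probe sets above the floor ran from -0.18 to 0.07. The X-linked gamma subunit gene, Eif2s3x, was at 2229.9 and 2325 (0.06), with 3 probe sets from -0.02 to 0.24. Its Y-linked copy, Eif2s3y, was at 517 and 609, a difference of 0.24, and was thus detected on both arrays. Eif2d, which can deliver tRNA to the ribosome without eIF2, went from 751 to 707 (-0.09) and had a second probe set at 0.02. For Eif2s2, Eif2s3x and Eif2d, the sign therefore depended on the probe set.

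eIF2B exchanges the guanine nucleotide on eIF2 and is the target of the brake set by eIF2 phosphorylation. Of its 4 measured subunits, 3 were lower on the MIF array, and none reached 1.2-fold. Eif2b4, the delta subunit, went from 1015 to 848, a difference of -0.26 just inside the limit, and was past 1.2-fold with the arrays centred or after quantile normalization. Eif2b2, the beta subunit, went from 1487 to 1294 (-0.20), and a second probe set went from 701 to 507 (-0.47). The brighter of these probe sets can cross-hybridise by its name, and without such probe sets Eif2b2 differed by -0.47. With averaged probe sets it was also past 1.2-fold lower. The catalytic epsilon subunit, Eif2b5, was at 634 and 590.2 (-0.10). In the other direction, the alpha subunit gene Eif2b1 went from 1255 to 1381 (0.14). The median of the 4 was -0.15, and 3 of 4 were below 0 under every scaling, floor and probe set choice tried. Of all assessed genes 53.3% were below 0, and 61.8% with the arrays centred. Eif2b1, Eif2b4 and Eif2b5 have 1 probe set each, so the choice of probe sets could not move them.

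Of the 4 kinases that phosphorylate eIF2, 3 were assessed, and these were higher with MIF by less than 1.2-fold. Of all assessed genes, 46.7% were above 0. In the dimmest signal group, which held Eif2ak3, 48.1% of all genes were below 0. In the next, which held Eif2ak1 and Eif2ak2, it was 48.5%. Eif2ak3, or PERK, which senses unfolded protein in the endoplasmic reticulum, went from 274 to 318 (0.21), close to the floor. Its other probe set lay under the floor on both arrays, at 67.7 with PBS and 54.7 with MIF. Eif2ak1, or HRI, which responds to lack of haem, went from 560.4 to 622 (0.15), and a second probe set went from 325 to 372 (0.20). The kinase activated by double-stranded RNA, Eif2ak2 or PKR, went from 565 to 613 (0.12), and a second probe set from 293 to 319 (0.12). Eif2ak4, or GCN2, the sensor of amino acid shortage, was at 130.4 and 164, under the floor on both arrays, and was past 1.2-fold higher (0.33) with no floor or a floor at the 20th percentile. The median of the 3 assessed kinases was 0.15. It stayed above 0 under the alternatives tried, the lowest being 0.11 with the arrays centred. Eif2ak3 was not assessed with averaged probe sets or a floor at the 60th percentile, which left 2 kinases there. PKR is induced by interferons, and its values are given here without a test of that link.

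**Figure D3:**
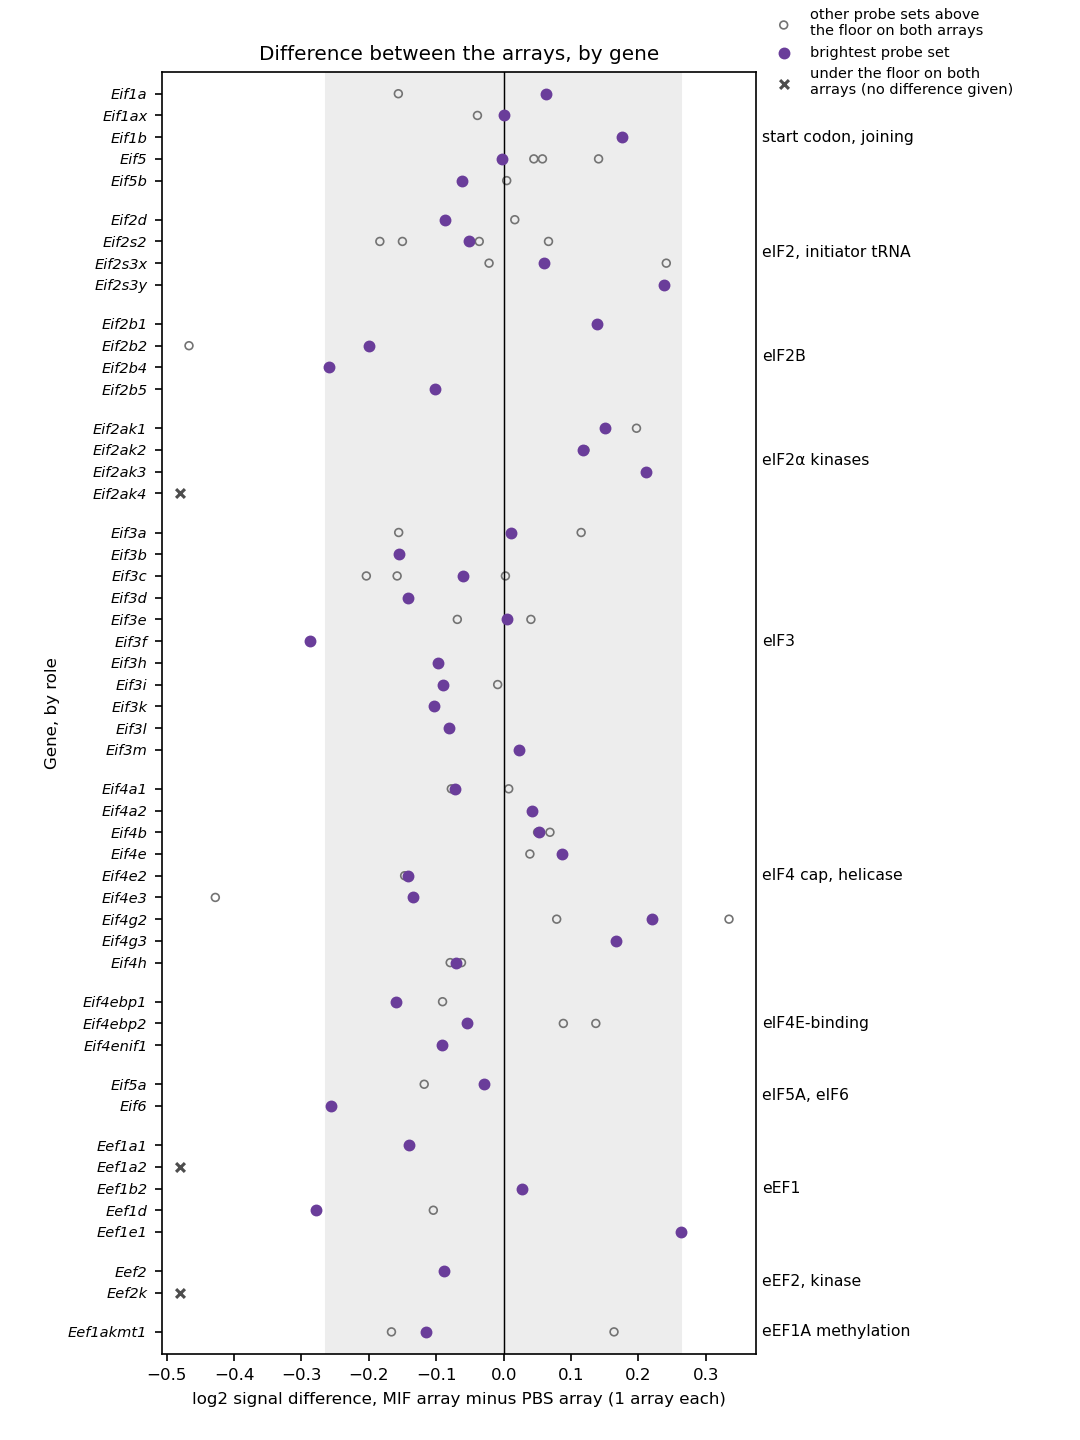
Log2 difference (MIF minus PBS) for each gene, by role. Purple points are the brightest probe set, open grey circles are the gene's other assessed probe sets, crosses at the left edge mark the 3 genes not assessed, and the shaded band is 1.2-fold either way. Eif3f and Eef1d lie left of the band, and the 3 assessed eIF2 kinases lie to the right of 0.

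eIF3, the scaffold of many subunits that holds the small ribosomal subunit to the mRNA, had 11 measured subunit genes, of which 8 were below 0 and 3 above, with a median of -0.09. Of all assessed genes 53.3% were below 0, and 63.1% in the brightest signal group, which held 9 of the 11. The split was the same after quantile normalization, with a median of -0.06, and with the intensity trend removed, with a median of -0.05. With the arrays centred, which lowers every member by 0.04, all 11 were below 0, against 61.8% of all assessed genes. That share covers genes of any brightness, and the one for the brightest group was not computed with centring. Eif3f, one of the pair of subunits with an MPN fold, went from 7259 with PBS to 5948 with MIF, 1.22-fold lower (-0.29), the largest difference of any member. It has 1 probe set, and after quantile normalization or removal of the intensity trend it no longer reached 1.2-fold (-0.24 and -0.23).

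The other eIF3 subunits were within 1.2-fold on their brightest probe set. Eif3b, a core subunit that binds RNA, went from 1406 to 1263 (-0.15), and Eif3d, which can bind the cap of some mRNAs, from 2729 to 2472 (-0.14). Eif3k was at 3086 and 2871 (-0.10), Eif3h, the other MPN subunit, at 4151 and 3879 (-0.10), and Eif3i at 5362 and 5037 (-0.09). Eif3l went from 2989.99 to 2827 (-0.08). Eif3c, of the core, went from 4229 to 4057 (-0.06), with 4 probe sets from -0.20 to 0.0027. The 3 genes above 0 were Eif3a, the largest subunit (3066 and 3090.2), Eif3e (5365 and 5383) and Eif3m (1497 and 1521, 0.02). With averaged probe sets, which take in 1 under the floor for each, Eif3m was at -0.40, past 1.2-fold lower, and Eif3l at 0.13. Eif3a had other probe sets at 0.12 and -0.16, and Eif3e at -0.07 and 0.04, so neither had a settled sign.

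The cap-binding and helicase group, eIF4, was split. Eif4g2 (also called DAP5), a scaffold that lacks the eIF4E-binding part and serves initiation without the cap, went from 4652 to 5418, 1.16-fold higher (0.22). Its other probe sets went from 3456 to 4358 (0.33) and from 1836 to 1939 (0.08), so all 3 were higher. Without cross-hybridising probe sets Eif4g2 stood at 0.33, past 1.2-fold. Eif4g3, a full-length scaffold, went from 492 to 552 (0.17). The cap-binding protein gene Eif4e went from 1599 to 1698 (0.09), and a second probe set was at 0.04. Of its relatives, Eif4e2, a cap-binding repressor, went from 1934.5 to 1753 (-0.14), with a second probe set at -0.15. Eif4e3 went from 493 to 449 (-0.13), and its second probe set, from 461 to 343, was at -0.43. Its averaged probe sets were past 1.2-fold lower. Eif4e, the form that promotes initiation, was thus above 0 and both of its relatives below 0 in all 6 probe sets above the floor. All but the second probe set of Eif4e3 lay at or within the SD between probe sets of 0.15, so this contrast was not settled. With averaged probe sets, which takes in 1 for Eif4e2 far under the floor (24.5 and 47.0), Eif4e2 was at 0.22.

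The helicase genes differed by less. Eif4a1 was at 5765 with PBS and 5483 with MIF (-0.07), with 3 probe sets from -0.08 to 0.0076, and Eif4a2 was at 5071 and 5222 (0.04). Of the proteins that stimulate the helicase, Eif4b was at 2553 and 2648 (0.05), with all 3 probe sets between 0.05 and 0.07. Eif4h was at 5668 and 5395 (-0.07), with all 3 between -0.08 and -0.06. The 9 genes of the eIF4 group had a median of 0.04, with 5 above 0 and 4 below.

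Of the proteins that bind and hold eIF4E, the 3 measured genes were all below 0, against 53.3% of all assessed genes. Eif4ebp1, the 4E-BP released by mTORC1 signalling, went from 530.3 to 475 (-0.16), with a second probe set at -0.09. Eif4ebp2 was at 994 and 957 (-0.05), but its other probe sets were at 0.14 and 0.09, so its sign was not settled. Eif4enif1, which shuttles eIF4E into the nucleus, was at 387 and 363 (-0.09). With averaged probe sets, where 2 of these genes were assessed, 1 was above 0 and 1 below.

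Eif6, which keeps the large ribosomal subunit from joining too early and helps to make that subunit, went from 4038 to 3381, 1.19-fold lower (-0.26), just inside the limit and on 1 probe set. With the arrays centred it was past 1.2-fold. Eif5a, the hypusine-bearing factor that relieves stalled ribosomes, was at 9430.1 and 9238 (-0.03), with a second probe set at -0.12. Its sign turned with the trend in intensity removed, to 0.04, and after quantile normalization, to 0.06.

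Among the genes of eEF1, Eef1d, the delta subunit of the exchange factor of eEF1A, went from 2733 to 2253, 1.21-fold lower (-0.28), and its second probe set went from 1472 to 1369 (-0.10). After quantile normalization, with the intensity trend removed or with averaged probe sets (-0.19), Eef1d was not past 1.2-fold. Eef1e1, whose product sits in the complex of tRNA synthetases, went from 539 to 647, higher by 0.26 and just short of the limit, on 1 probe set. The tRNA carrier Eef1a1 was at 14400.3 and 13067 (-0.14), and Eef1b2, the catalytic exchange subunit, at 7181 and 7321 (0.03). Eef1a2, the form of muscle and neurons, was at 83.7 and 96.8, under the floor.

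The translocase gene Eef2 was at 8057 and 7580.5 (-0.09), and was at 0.0064 after quantile normalization. Its inhibitory kinase, Eef2k, was at 153.8 and 129 and was not assessed. Eef1akmt1, a methyltransferase of eEF1A, was at 547 and 505 (-0.12), with other probe sets at -0.17 and 0.16. With the probe sets of a gene averaged, it was at 0.04.

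The regions upstream of these genes were searched for short motifs, to show what sequence the members share that their names did not use. Both windows below hold the E-box CACGTG, the site bound by Myc and related factors and known from Eif4e. They are shown because Eif3f had the largest difference of all members and Eif4e encodes the cap-binding protein. Sequences are from RefSeq on GRCm38.p6, 250 bases up to the annotated start, on the strand of the gene, with the E-box in capitals.
Eif3f, chr7:108934165-108934414, plus strand: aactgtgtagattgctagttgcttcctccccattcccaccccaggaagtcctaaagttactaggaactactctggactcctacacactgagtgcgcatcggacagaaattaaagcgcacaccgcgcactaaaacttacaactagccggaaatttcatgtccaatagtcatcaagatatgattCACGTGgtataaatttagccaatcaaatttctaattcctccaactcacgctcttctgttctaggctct
Eif4e, chr3:138527018-138527267, plus strand: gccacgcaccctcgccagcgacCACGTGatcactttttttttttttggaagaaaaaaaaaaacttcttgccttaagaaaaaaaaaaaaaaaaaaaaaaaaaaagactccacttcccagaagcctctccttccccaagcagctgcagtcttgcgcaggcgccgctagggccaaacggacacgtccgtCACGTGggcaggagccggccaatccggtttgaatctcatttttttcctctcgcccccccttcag

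The E-box of Eif3f begins 68 bases before the start, and those of Eif4e begin 228 and 64 bases before it. Of 40 members with an upstream window in the table, 9 (22.5%) held CACGTG, against 6.86% of all 27025 genes. These were Eef2, Eef2k, Eif1b, Eif3f, Eif3k, Eif4a1, Eif4e, Eif4h and Eif5a. The motif reads alike on both strands. A gene with several windows was counted if any of them held the motif, here and for the motifs below. The median GC content, taking the window with the highest content for each gene, was 60.8% for the members and 52.8% for all genes. The part of GC content and of the number of windows per gene in the difference was not tested. Of the 8 assessed genes with the motif, 6 were below 0 and 2 above, with a median of -0.07. All of these but Eif1b lie in the brightest signal group. In that group 63.1% of all genes were below 0, and the median of all its members was also -0.07. The 29 assessed genes without it had 15 below 0 and 14 above, with a median of -0.0031.

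The other motifs were searched on both strands and were less frequent. The interferon response core, GAAA repeated after any 2 bases, was in the window of 1 member (2.5%), Eif3a, against 3.46% of all genes. The amino acid response motif TGATGNAA was upstream of Eef2k and Eif2s3x (5%), against 3.91%. The ETS motif CCGGAAGT was upstream of 4 members (10%), against 3.23%. The NRF1 motif was upstream of 1 member, against 0.877% of all genes, and the cyclic AMP response motif TGACGTCA of none, against 1.77%. A match is a description of these letters and not of binding.

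Genes around the translation factors were read from 6 related lists, with the 1.2-fold counts set beside the same background of 6.82% higher and 6.29% lower. Splits about 0 stand beside 46.7% of all assessed genes above 0 and 53.3% below. Of 15 assessed genes of mTORC1 and cap-binding control, 9 were above 0 and 6 below, with a median of 0.02 that turned to -0.01 with the arrays centred. Past 1.2-fold higher were Rraga, a GTPase that brings mTORC1 to the lysosome (413 and 504, 0.29), and Deptor, an inhibitor of mTOR (1553 and 1881, 0.28). None was past it on the lower side. Both were short of 1.2-fold under some alternatives. Deptor was at 0.24 with the arrays centred and 0.22 with averaged probe sets. Rraga was at 0.25 with the arrays centred and at 0.26 after quantile normalization or with the trend removed. For a floor at the 60th percentile its PBS signal lay under the floor, so its difference there is a bound, at least 0.02. The kinase gene Mtor was at 416 and 432, and Pabpc1, the poly(A)-binding protein that joins eIF4G, was at 8692 and 8734. On the lower side the largest differences were in Lamtor2 (1528 and 1409.8, -0.12) and in Rps6kb2, an S6 kinase, which was under the floor with MIF (at least 1.08-fold lower).

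The integrated stress response, the set of genes switched by eIF2 phosphorylation, had a median of 0.01 over 10 assessed genes. Of these, 7 were above 0 and 3 below, against 46.7% of all assessed genes above 0. With the arrays centred the split was 3 above and 7 below, and after quantile normalization 4 and 6. Its transcription factor Atf4 had an RNA signal of 2301 on both arrays, and its protein was not measured. Ppp1r15a, the phosphatase subunit that reverses the modification, was at 420.4 and 427. The gene past 1.2-fold was Nupr1, a stress-induced chromatin protein, at 1758 and 2458 (0.48), and the lowest was Phgdh, of serine synthesis, at 837 and 709 (-0.24). Ddit3, or CHOP, was under the floor on the PBS array and at 252 on the MIF array, at least 1.09-fold higher.

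The list of cytosolic aminoacyl-tRNA synthetases, which charge the tRNAs that eEF1A carries, had 20 assessed genes. Among them were Aimp1 and Aimp2, whose products belong to the complex of synthetases and do not charge tRNA. Of these, 14 were below 0 and 6 above, against 53.3% of all assessed genes below 0, with a median of -0.04. Wars, the tryptophan enzyme, which interferon gamma induces, went from 1952 to 1395 (-0.48) and was at -0.30 without cross-hybridising probe sets. Kars, the lysine enzyme, went from 2153 to 1742 (-0.31). These were the 2 genes past 1.2-fold lower, and none was past it on the higher side, where Cars (0.16) was the highest.

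Among 11 helpers of initiation and of eIF5A modification, 2 were past 1.2-fold lower and none higher. The median was -0.11, and it turned to 0.04 with the probe sets of a gene averaged. Dhps, which starts the hypusine modification of eIF5A, went from 292 to under the floor, at least 1.26-fold lower, and was at -0.14 with averaged probe sets, short of 1.2-fold. Abcf1, an ATPase that stimulates eIF2 function, went from 1154 to 954 (-0.27), and its direction turned with averaged probe sets. The highest was the helicase Ddx3x, at 5028 and 5671 (0.17).

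Of 5 assessed genes of termination and ribosome rescue, none was past 1.2-fold, with a median of 0.08. The highest was Hbs1l, a rescue GTPase, at 765 and 833 (0.12), and the lowest Gspt1, the release factor eRF3, at 1382 and 1319 (-0.07). The 5 mitochondrial translation factors had a median of 0.03, which turned to -0.0048 with the arrays centred and to -0.04 without cross-hybridising probe sets. Tufm, the mitochondrial counterpart of eEF1A, went from 882 to 748 (-0.24), and Gfm1, that of eEF2, from 659 to 751 (0.19).

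**Figure D4:**
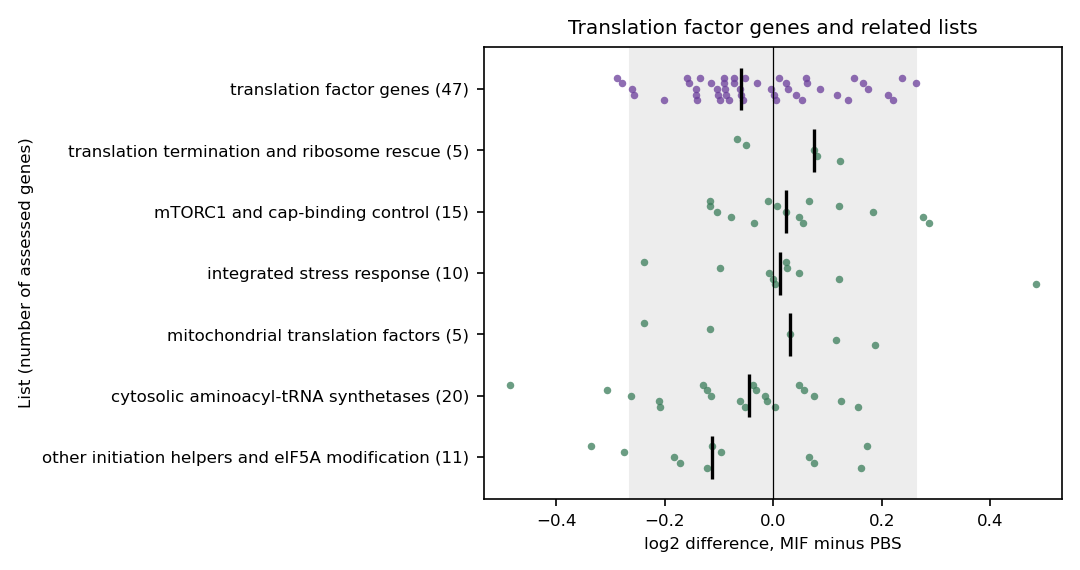
Log2 difference (MIF minus PBS) of each assessed gene (points) with the list median (black bar), for the 47 translation factor genes and the 6 related lists, with the number of assessed genes in brackets. The shaded band is 1.2-fold either way. Nupr1 (0.48) is the point farthest to the right and Wars (-0.48) the point farthest to the left.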

How the data were processed

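The authors deposited a processed signal intensity per probe set, which the values show to be on a linear scale. The sources used here do not give its summarisation, background correction or scaling, or how the 15340 probe sets were chosen. Per the labels' protocols, RNA was extracted with Trizol and labelled as biotinylated cRNA.

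Of the probe sets, 61 are controls and were left out, 14049 had 1 gene symbol in GEO's platform annotation, 490 had several and 740 had none. Symbols were updated through the Entrez ID with the gene table of GRCm38.p6, for names only, and no member's symbol changed. Members had to have a single symbol. Signals were floored at the 40th percentile of all signals other than controls, and genes under it on both arrays were not assessed. With 1 array under it, a difference is a bound.

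With 1 array per group no test was possible. Members and lists were chosen with earlier results of these data known. Named genes were all members, and in each related list those past 1.2-fold and the largest difference in either direction, with Mtor, Pabpc1, Atf4, Ppp1r15a and Ddit3 added after their values were seen. The motifs were also chosen after the values were seen. Alternatives were median centring, quantile normalization, floors at the 20th and 60th percentile or none, averaged probe sets, leaving out _x_at and _s_at probe sets, thresholds of 1.1-fold and 1.5-fold, and a loess trend in intensity (span 0.3) taken out. The steps were run on simulated data, with planted differences larger than that of any member and noise smaller than the SD between probe sets. That run checks the code and does not bear on the 1.2-fold counts given here. The software was Python 3.11.15 with matplotlib 3.10.9, statsmodels 0.14.6, pandas 2.3.3 and numpy 2.4.6.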

Additional observations from a re-analysis of the deposited data

How the results depend on the processing

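The median of the translation factor genes stayed below 0 under the 8 alternatives that recompute it, between -0.10 with the arrays centred and -0.02 with the intensity trend removed, and moved by less than the SD between probe sets. The counts past 1.2-fold are small and moved by more than 1.5 times under most alternatives. On the higher side, where the main count was 0, it was 1 after quantile normalization, with the trend removed and without cross-hybridising probe sets (Eif4g2 each time), and 1 for a floor at the 20th percentile or no floor (Eif2ak4). On the lower side, where it was 2, it was 4 with the arrays centred (Eif2b4 and Eif6 added), 4 with averaged probe sets (Eif2b2, Eif3f, Eif3m and Eif4e3), 1 after quantile normalization and 0 with the trend removed. At 1.5-fold it was 0 on the lower side, and at 1.1-fold the counts were 8 higher and 10 lower. The cause of these changes was not tested. Of 366 values of single members under the alternatives, 360 moved by less than the SD between probe sets. That SD is taken over all genes, and over the members alone it was 0.10. Much of this count was fixed by the settings. Changed floors left most members' values as they were, and centring moved every member by the same 0.04. Averaging could not move a member with 1 probe set. The 2 members past 1.2-fold, Eif3f and Eef1d, did not change sign. Of the related genes, Abcf1 reversed, to 0.017 with averaged probe sets, where Dhps was at -0.14, short of 1.2-fold. Averaging includes dim probe sets, as for Eif3m, at -0.40 there. No paired analysis was possible because each group is 1 array. Signals near the floor of 232, as for Eif2ak3, limit what can be said of dim members.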

Other observations

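Some translation factor genes share their probe sets with another symbol and so were not among the 50 genes. The probe set tied to Eif4a3, the helicase of the exon junction complex, and a predicted gene had a signal of 1862 with PBS and 1547 with MIF (-0.27). The one tied to Eef1g, the gamma subunit of the exchange factor of eEF1A, and a predicted gene was at 8118 and 7330.1 (-0.15). The 3 probe sets shared by the eIF3 subunit copies Eif3j1 and Eif3j2 were at 837 and 984 (0.23), 344 and 388 (0.17), and 1333 and 1313 (-0.02), so they did not settle a direction.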
